A study of Homo sapiens with 2 samples.

Results

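The carcinoembryonic antigen genes CEACAM1, CEACAM5, CEACAM6 and CEACAM7 were examined in Caco-2, an established line of human colon carcinoma cells that can polarise and take on features of enterocytes. They were taken by gene symbol, and all 4 were found among the 23709 genes of the deposited expression table. Poly(A) RNA was sequenced from total RNA (the mRNA library) and from the RNA of ribosome-nascent chain complexes (the RNC library, RNC-mRNA in the labels). The latter is intended to represent mRNAs in translation. Both libraries came from the same line grown in serum-containing DMEM with antibiotics, with no treatment named, and the labels do not say whether they came from the same culture. There is 1 library of each kind, so no difference below has a replicate check and no p-value is given.

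CEACAM proteins are cell-surface glycoproteins of the immunoglobulin superfamily that bind one another between neighbouring cells and are used as docking sites by several bacteria. CEACAM5 is the carcinoembryonic antigen measured in the serum of patients with colorectal cancer. It is held in the membrane by a glycosylphosphatidylinositol (GPI) lipid anchor, as are CEACAM6 and CEACAM7, whereas CEACAM1 spans the membrane and can carry inhibitory signalling motifs in its cytoplasmic tail. In the colon these proteins lie mainly on the apical surface of mature epithelial cells.

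The start codon regions are shown because the comparison concerns RNA bound to translating ribosomes. Each line gives 12 bases before and 6 bases after the start codon, which is in capitals, from the GENCODE release 29 transcript matched to the record that the table names.
CEACAM1: gcaggagacaccATGgggcac
CEACAM5: acagcagagaccATGgagtct
CEACAM6: acagcagagaccATGggaccc
CEACAM7: gcagcagagaccATGgggtcc
CEACAM5 and CEACAM6 had the same 12 bases before the start codon, and CEACAM7 shared 11 of them in an unbroken run. In CEACAM1 the unbroken run directly before the start codon was 3 bases, and most of the bases further upstream matched as well. The 5' untranslated region was 114 bases long in the CEACAM5 transcript, 135 in CEACAM1, 202 in CEACAM7 and 218 in CEACAM6. It held no other ATG in CEACAM1 and CEACAM5, 2 in CEACAM7 and 3 in CEACAM6. These lengths and counts depend on the annotation, since the GENCODE transcripts of CEACAM6 and CEACAM7 (2700 and 2489 bases) start upstream of the RefSeq start and are longer than the records behind the RPKM values (2631 and 2289 bases). The coding sequence was 2109 bases long in CEACAM5, 1581 in CEACAM1, 1035 in CEACAM6 and 798 in CEACAM7.

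The 4 genes lie on chromosome 19 and resemble each other in their promoters as well. Over the 250 bases before the RefSeq start, pairs of members were between 64.4% (CEACAM1 and CEACAM5) and 80.5% (CEACAM5 and CEACAM7) identical when aligned. The 30 bases below surround the letters CACGTG, a form of E-box (CANNTG, where N is any base). CACGTG reads the same on both strands and is the class of site that upstream stimulatory factors bind. The CACGTG of CEACAM5 and CEACAM6 and the bases aligned with it in the other members are in capitals. The sequences are RefSeq's on GRCh38.p14, a later build than the hg19 named for the expression table, and are written on the strand of the gene.
CEACAM6, chr19:41755473-41755502, plus strand: gcacccatgaccCACGTGaccctgggaaat
CEACAM5, chr19:41708568-41708597, plus strand: acacccatgaccCACGTGatgctgagaagt
CEACAM1, chr19:42528505-42528534, minus strand: cccgccccagcaCACATGatcagacaaagc
CEACAM7, chr19:41688297-41688326, minus strand: ccacccctggacCATGTGatcttggaaagt
CACGTG began 45 bases before the start in CEACAM6 and 46 bases before it in CEACAM5. Neither CEACAM1 nor CEACAM7 held CACGTG within the 250 bases, which 6.49% of 27305 promoters of that length did. Counted from the first base of CACGTG, CEACAM1 differed by G4A and CEACAM7 by C3T. Both changes fall in the middle letters and keep the form CANNTG. In CEACAM6 and CEACAM7 the GENCODE transcript starts further upstream and its first exon covers the site.

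Levels are RPKM, reads normalised by the length of the transcript and the depth of the library, so they can be set side by side between genes. The whole-read structure of the values gave totals of 9640364 reads for the mRNA library and 11083302 for the RNC library. It also gave the fewest whole reads behind each value, from which 95% intervals were computed. These cover counting error only, since PCR copies are not independent molecules.

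CEACAM6, a GPI-anchored adhesion molecule often raised in gastrointestinal tumours, was the most abundant member in both libraries. It had 18.9 RPKM in the mRNA library (interval 17.3 to 20.7, 480 reads), against 9.53 RPKM in the RNC library (8.45 to 10.7, 278 reads). CEACAM5 had 9.85 RPKM in the mRNA library (8.43 to 11.4), against 1.85 RPKM in the RNC library (1.31 to 2.56), on at least 171 and 37 reads. Both were lower in the RNC library, with intervals that did not overlap.

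CEACAM1, the transmembrane member, had 2.92 RPKM in the mRNA library (interval 2.37 to 3.55, 99 reads), against 1.87 RPKM in the RNC library (1.47 to 2.35, 73 reads), and these intervals did not overlap either. CEACAM7, a GPI-anchored member whose expression is known to be reduced in colorectal tumours, was close to the detection limit. It had 0.453 RPKM in the mRNA library (0.217 to 0.833, 10 reads) and a listed value of 0 in the RNC library, where 3 reads would have given 0.118 RPKM. Taking the mRNA value as it stands, CEACAM7 was at least 3.83-fold lower in the RNC library against that floor. Of the 18758 genes above 0 in the mRNA library, 6.98% were listed at 0 in the RNC library.

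**Figure D1:**
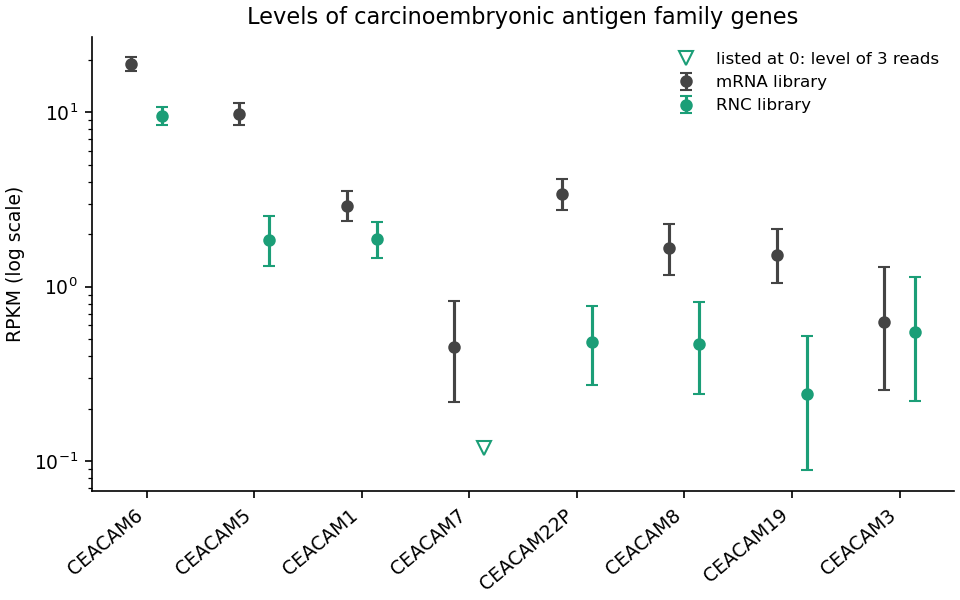
Levels of the 4 members and of 4 other CEACAM genes in RPKM on a log axis, grey for the mRNA library and green for the RNC library, with 1 library each and bars for the 95% counting interval. CEACAM6 leads in both libraries, CEACAM5 and CEACAM1 come together in the RNC library, and CEACAM7 is drawn there as an open triangle at 0.118 RPKM, the level of 3 reads.

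CEACAM5 stood clearly above CEACAM1 in the mRNA library but not in the RNC library. In the mRNA library the order was CEACAM6, CEACAM5, CEACAM1 and CEACAM7, and each step exceeded counting error. There the level of CEACAM5 was 0.521 times that of CEACAM6 (interval 0.435 to 0.621), and that of CEACAM1 was 0.296 times that of CEACAM5 (0.229 to 0.382). CEACAM1 was 6.44 times as high as CEACAM7 (3.36 to 13.8). In the RNC library CEACAM1 and CEACAM5 could not be placed in order, with a level ratio of 1.01 (0.671 to 1.54). CEACAM5 was 0.195 times as high as CEACAM6 there (0.134 to 0.275).

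As parts of the members' summed RPKM, CEACAM6 made up 58.9% in the mRNA library, against 71.9% in the RNC library. CEACAM5 made up 30.7% and 14.0%, and CEACAM1 9.08% and 14.1%. The sum itself was 32.2 RPKM in the mRNA library, against 13.3 RPKM in the RNC library. Among all genes of the table ranked by level, CEACAM5 stood at place 6672 in the mRNA library, against 11438 in the RNC library. CEACAM6 stood at 4136 and 6545, and CEACAM1 at 11178 and 11414. Levels are averages over bulk RNA, so within a library few cells with much transcript and many cells with little cannot be told apart.

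Translation ratios compare a gene's RPKM in the RNC library with that in the mRNA library. They are given as log2((RNC + 0.1) / (mRNA + 0.1)) relative to the median of the 13402 expressed genes, those with a mean of at least 1 RPKM over both libraries. On this scale 0 is the median gene and -1 is 2-fold below it. The interval of a gene was computed from its reads without the added 0.1. CEACAM7, at a mean of 0.227 RPKM, was not among the expressed genes.

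All 3 expressed members lay below the median gene. CEACAM5 had a ratio of -2.31 (interval -2.93 to -1.85), 4.96-fold below the median, and was the 271st lowest of the 13402. That interval rests on the fewest reads, 171 and 37, which need a record of 1800 bases. This is shorter than the coding sequence of CEACAM5, 2109 bases, so these reads are too few and the interval is too wide. The fitting length nearest to its transcript was 3600 bases, with 342 and 74 reads and an interval of -2.75 to -2.01. CEACAM6 had a ratio of -0.94 (-1.17 to -0.73), and CEACAM1 had a ratio of -0.58 (-1.06 to -0.15). The upper end of each interval lay below the median gene. For CEACAM7 the level of 3 RNC reads corresponds to a ratio of -1.90, and the upper end of its counting interval, which includes the error of the 10 mRNA reads, was -1.33.

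At least 2-fold below the median were 1 of the 3 expressed members, CEACAM5, and 11.8% of all expressed genes. At least 2-fold above were none of the members and 1.37% of all expressed genes. CEACAM6 lay just short of the 2-fold line and crossed it under 2 of 8 alternatives: -1.03 with a minimum mean of 5 RPKM and -1.01 with upper-quartile scaling. Leaving out the centring and scaling to equal summed RPKM both gave -0.98, so these are not separate checks.

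**Figure D2:**
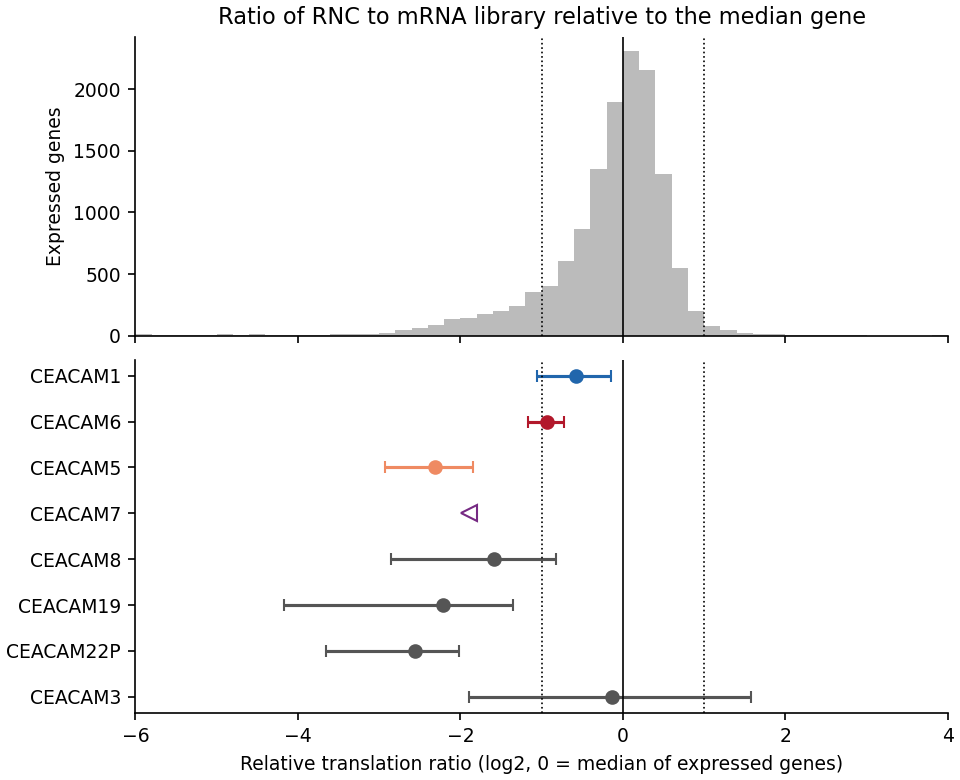
Upper panel, number of expressed genes by relative translation ratio (log2, bins 0.2 wide, values beyond the axis in the end bins, 0 is the median gene). Lower panel, the ratio of each CEACAM gene with its 95% counting interval, dotted lines at 2-fold, and an open triangle at -1.90 for CEACAM7 with 3 reads taken in place of 0. CEACAM5 lies in the lower tail, while CEACAM1 and CEACAM6 lie between the median and the 2-fold line.

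The members also differed among themselves. Differences between their log2 ratios were computed from the fewest reads, without the added 0.1 RPKM. Those with CEACAM5 rest on 171 and 37 reads, which are too few, so their intervals err on the wide side. The log2 ratio of CEACAM5 minus that of CEACAM6 was -1.42 (interval -2.02 to -0.85), a 2.68-fold difference between 2 GPI-anchored paralogs. CEACAM1 exceeded CEACAM5 by 1.77 (1.06 to 2.49), or 3.41-fold. CEACAM1 and CEACAM6 differed by 0.35 (-0.16 to 0.85), an interval that holds 0 and also differences of up to 0.85. The ratios of CEACAM1 and CEACAM6 exceeded that of CEACAM7 by at least 0.66 and 0.36, the lower ends of their intervals. For CEACAM5 against CEACAM7 that lower end was -1.12, so those ratios could not be placed in order. These 6 pairs are all the pairs of members, their intervals were not adjusted for the number of pairs, and they describe these 2 libraries and not the conditions.

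**Figure D3:**
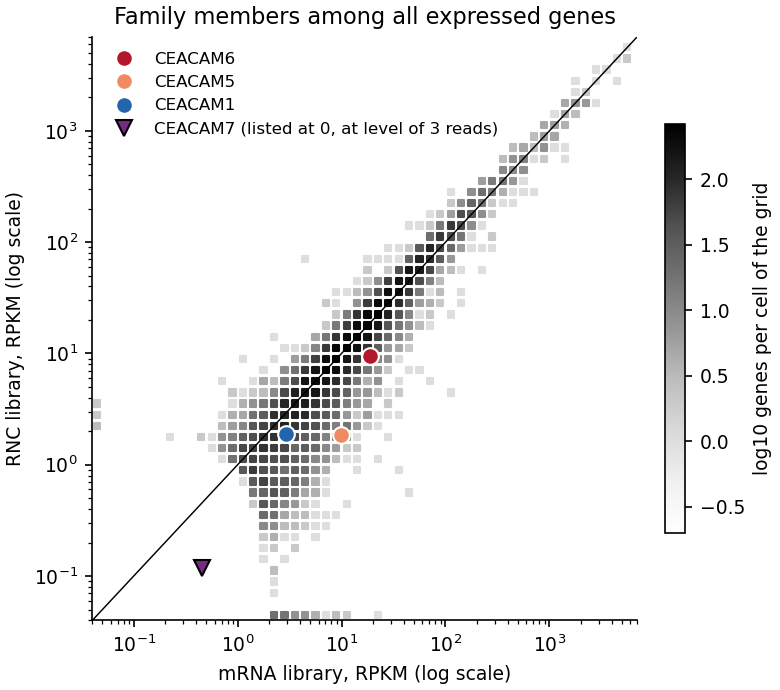
RPKM in the mRNA library (x) against the RNC library (y), both on log axes, for the 13402 expressed genes as a grey density and for the members as coloured points, with the line of equal levels. Genes listed at 0 in a library sit at the edge of the plot, CEACAM7 is drawn at the level of 3 reads, and all 4 members lie below the line.

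Paralogs can trade reads where their sequences are the same, and how the authors assigned such reads is not stated by any source available here. Of all 50-base windows of the CEACAM6 transcript, 4.6% occurred unchanged, on either strand, in the transcript of another gene of the table. The share was 4.15% for CEACAM1, 3.33% for CEACAM5 and 0% for CEACAM7. With 35-base windows it was 10.2%, 7.03%, 12.3% and 0.652% for CEACAM6, CEACAM1, CEACAM5 and CEACAM7. The longest coding stretch that CEACAM5 and CEACAM6 had in common was 65 bases, shown because a read inside it cannot be assigned to either gene.
CEACAM5 and CEACAM6, from base 752 of both coding sequences: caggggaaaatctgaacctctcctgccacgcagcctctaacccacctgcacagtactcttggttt
The part of such reads in the levels and ratios was not tested.

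Among the other CEACAM genes, the pseudogene CEACAM22P and the genes CEACAM8 and CEACAM19 were also lower in the RNC library. CEACAM22P had 3.40 RPKM in the mRNA library, against 0.479 RPKM in the RNC library, on 99 and 16 reads, a ratio of -2.56 (interval -3.65 to -2.02). CEACAM19 had 1.52 and 0.241 RPKM, on 33 and 6 reads (-2.21, -4.17 to -1.35). CEACAM8, a granulocyte antigen, had 1.67 and 0.470 RPKM, on 37 and 12 reads (-1.59, -2.86 to -0.82). CEACAM22P and CEACAM8 were the only 2 of these 9 genes with a mean of at least 1 RPKM.

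CEACAM3, a granulocyte receptor for bacteria, had 0.631 RPKM in the mRNA library, against 0.549 RPKM in the RNC library, with 7 reads in each (-0.13, -1.90 to 1.58). CEACAM18 had 0.260 and 0.302 RPKM, on 3 and 4 reads, with a ratio of 0.20 (-2.31 to 3.02). CEACAM20 rested on 3 and 1 reads (0.172 and 0.0499 RPKM, interval -7.46 to 1.89) and CEACAM21 on at least 1 read in each library (0.229 and 0.199 RPKM). CEACAM16 (0.307 RPKM, 5 reads) and CEACAM4 (0.0861 RPKM, 1 read) were listed at 0 in the RNC library. The interval of CEACAM16 ended at -0.04, just below the median gene. Those of the other 5 genes held the median gene, so no direction can be read for them at this depth.

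The pregnancy-specific glycoproteins, placental secreted relatives of the CEACAM proteins, were near the detection limit. Of 11 in the table, PSG4, PSG9 and PSG11 were listed at 0 in both libraries, and none reached a mean of 1 RPKM. PSG6 had 0.179 RPKM and 0, PSG5 0.127 and 0.165 RPKM, and PSG7 0.0509 and 0.0885 RPKM. PSG1 (0.0456 RPKM) and PSG10P (0.0595 RPKM) had a value in the mRNA library alone. PSG3 (0.0946 RPKM), PSG2 (0.0560 RPKM) and PSG8 (0.0444 RPKM) had one in the RNC library alone. CEACAM1, CEACAM5, CEACAM6 and CEACAM7 together held 78.6% of the summed RPKM of all these relatives in the mRNA library, against 82.9% in the RNC library.

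The labelled cell type was checked against markers. The epithelial markers EPCAM (244 and 273 RPKM in the mRNA and RNC libraries), CDH1 (242 and 229 RPKM) and VIL1 (109 and 116 RPKM) were abundant, and 11 of 12 such markers were expressed. KRT20, a keratin of mature enterocytes, was the exception at 0.977 and 0.050 RPKM. Of 13 leukocyte markers 4 were expressed, with a summed level of 23.6 and 18.5 RPKM. The most abundant were CD68, a lysosomal protein of macrophages that other cells also make (12.97 and 12.54 RPKM), CSF3R, the granulocyte colony-stimulating factor receptor (4.96 and 0.853 RPKM, ratio -2.37), and CD14 (3.40 and 3.78 RPKM). All 3 were above the levels of CEACAM8 and CEACAM3 in the same library. The remaining expressed marker, S100A9 (1.26 and 0.938 RPKM), was below CEACAM8 in the mRNA library and above it in the RNC library. The defining PTPRC had 0.363 and 0.0332 RPKM, while MS4A1, ELANE, FCGR3B and S100A8 were at 0 in both libraries. Of 5 endothelial markers 1 was expressed, PECAM1 at 4.12 and 1.58 RPKM, and CLDN5 was at 0 in both (summed level 4.93 and 2.07 RPKM). The part of other cell types in the levels of CEACAM8 and CEACAM3 was not tested.

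Of 24 expressed CEACAM1 signalling partners and receptors, 1 (4.17%) was at least 2-fold below the median gene and none above, beside 11.8% and 1.37% of all expressed genes. Their median ratio was 0.23. HAVCR2, a T cell inhibitory receptor that binds CEACAM1, was the lowest, with 3.41 and 0.928 RPKM on at least 16 and 5 reads (-1.74, interval -3.64 to -0.33). At the fitting length nearest to its transcript, 2916 bases, its reads would be 96 and 30 and the interval -2.48 to -1.24. ANXA2 (481 and 594 RPKM, ratio 0.34) and S100A10 (363 and 484 RPKM, ratio 0.46), which form a complex at the inner membrane, were the most abundant. The actin-binding TPM1 was the highest at 0.68.

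Of 30 transcription factors linked to CEACAM promoters or to the gut epithelium, all were expressed, with a median ratio of 0.17. At least 2-fold below the median was 1 (3.33%) and at least 2-fold above 1, beside 11.8% and 1.37% of all expressed genes. GATA4 was at -1.05 (interval -1.68 to -0.56) and GATA6 at 1.03 (0.73 to 1.35), both past the 2-fold line by less than counting error. For GATA6 the interval is 0.90 to 1.17 at the length of its transcript, 3770 bases. The abundant HNF4A (77.4 and 95.2 RPKM) and CDX2 (79.8 and 87.8 RPKM) had ratios of 0.34 and 0.18. The 8 genes linked to the splicing of CEACAM1 had a median of 0.24, from IRF1 (-0.81) to PTBP1 (0.43). IRF1 is a transcription factor and is among the 30 above as well. The lowest of the others was ESRP1 at 0.03. None of the 8 was 2-fold from the median, and the most abundant, HNRNPL and HNRNPA1, had ratios of 0.38 and 0.10.

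Genes that make the GPI anchor, and other proteins that carry it, were centred near the median gene. Of 29 expressed genes of GPI anchor synthesis and attachment, 4 (13.8%) were at least 2-fold below, none was 2-fold above, and their median was 0.04. PIGZ, a mannosyltransferase, was the lowest (12.1 and 4.61 RPKM, -1.33), and PIGN the highest (0.71). The transamidase subunits PIGT (212 and 255 RPKM, 0.31) and GPAA1 (51.5 and 56.3 RPKM, 0.17) were the most abundant. Of 39 other expressed GPI-anchored proteins, 4 (10.3%) were at least 2-fold below and none above, with a median of -0.13. Mesothelin, MSLN, was the lowest with 2.73 and 0.582 RPKM (-2.01, interval -3.15 to -1.33), and ULBP3 the highest (0.73, interval -0.35 to 1.97). The protease PRSS8 had 326 and 245 RPKM (-0.37) and CD24 had 197 and 245 RPKM (0.36). Both shares were near the 11.8% of all expressed genes.

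Among 33 other expressed immunoglobulin superfamily adhesion molecules, 3 (9.09%) were at least 2-fold below and none above, with a median of 0.13. The shares of all expressed genes were 11.8% below and 1.37% above. VSIG1, a gastric junctional protein, had 11.3 and 2.43 RPKM (-2.14, interval -2.54 to -1.85), a ratio close to that of CEACAM5. PVRL1, also called nectin-1, was the highest (0.89), and the abundant BSG and BCAM had ratios of 0.04 and -0.18.

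Of 30 expressed enterocyte differentiation and apical surface genes, 8 (26.7%) were at least 2-fold below the median and 1 was 2-fold above, with a median ratio of -0.40, beside 11.8% and 1.37% of all expressed genes. PRAP1, an acidic secreted protein of the gut, was the lowest (22.0 and 5.46 RPKM, -1.96), and the peptide hormone precursor GUCA2A was the highest (2.53 and 6.28 RPKM, 1.32, interval 0.44 to 2.34). The most abundant, PHGR1 and EZR, had ratios of 0.33 and -0.06. Of 24 expressed glycosyltransferases and oligosaccharyltransferase subunits, which build the glycans that CEACAM proteins carry, 2 (8.33%) were at least 2-fold below and none above, with a median of 0.03. The fucosyltransferase FUT6 was the lowest with 3.74 and 0.690 RPKM (-2.24, interval -3.10 to -1.75), MGAT2 the highest (0.72), and RPN2 (335 and 397 RPKM) and RPN1 (199 and 244 RPKM) had ratios of 0.28 and 0.33.

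Neighbours on the chromosome were also compared. The 10 nearest measured genes on either side of the run from CEACAM7 to CEACAM1 were taken, passing over CEACAM and PSG genes. Genes inside the run were not included. Of these 20 neighbours, 14 were expressed, with a median of -0.11. Of the 14, 1 (7.14%) was at least 2-fold below and none above, beside 11.8% and 1.37% of all expressed genes. TMEM91 was the lowest (-1.55) and EXOSC5 the highest (0.67), and the abundant HNRNPUL1 and ETHE1 had ratios of 0.44 and -0.47.

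**Figure D4:**
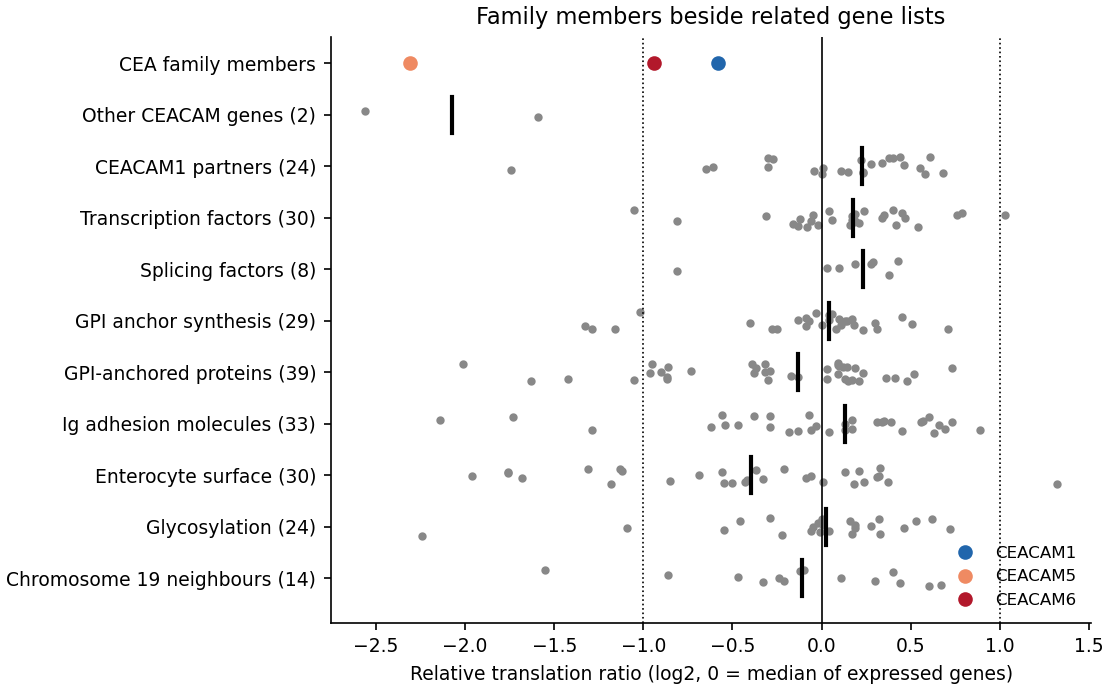
Relative translation ratio (log2) of CEACAM1, CEACAM5 and CEACAM6 in the top line and, below it, of each expressed gene of 10 lists (grey points, number of genes in brackets, black bar at the list median, dotted lines at 2-fold). List medians other than that of the 2 CEACAM genes run from -0.40 to 0.24, and CEACAM5 at -2.31 lies below every list gene but CEACAM22P.

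The genes nearest to each member in both levels were found by Euclidean distance in log2(RPKM + 0.1) over the 2 libraries, among protein-coding records. Nearest to CEACAM5 were SPN (9.94 and 1.86 RPKM, distance 0.013), KLHL17 (9.47 and 1.79 RPKM) and POU5F1 (9.27 and 1.92 RPKM). Nearest to CEACAM6 were LYPD3 (18.7 and 9.94 RPKM, distance 0.063), KREMEN2 (20.02 and 9.69 RPKM) and CHD7 (17.8 and 9.44 RPKM). Nearest to CEACAM1 were SPATA13 (2.91 and 1.90 RPKM, distance 0.021), NCR3LG1 (2.88 and 1.91 RPKM) and EME2 (2.91 and 1.82 RPKM).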

How the data were processed

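The deposited values are RPKM per gene, computed by the authors, per the file headers, with 1 column for each library. The submitters' processing notes name the build hg19. The aligner, the counter and the treatment of multi-mapping reads are not given in the sources used here. The table names 1 RefSeq record per gene.

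Each library's total was the number that made the reads of most genes whole, given GENCODE release 29 lengths and values rounded to 7 digits. It fitted 1769 genes for the mRNA library and 1507 for the RNC library (RNA from ribosome-nascent chain complexes), against 1500 and 1313 at the next best totals, which were multiples. Reads of a gene are the fewest at which both values are whole, within a relative error of 2e-07 beyond rounding. They gave exact Clopper-Pearson intervals of ratios, exact Poisson intervals of levels and conditional intervals of differences between members, with scipy 1.17.1. A count of 0 was read as at most 3 reads. Ratios used a pseudocount of 0.1 RPKM. The recovery of totals and reads was tested on simulated data made with the GENCODE lengths themselves. For reads, that test asked whether the true number was among the fitting ones. It could not show that the fewest reads are the true reads.

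The members and the gene lists were chosen with earlier results of these data known. Named genes are the members, the other CEACAM and PSG genes above 0, the 2 most abundant and the highest and lowest ratio of each list, cell type markers, and the 3 nearest genes of each member. Alternatives were pseudocounts of 0.01 and 1 RPKM, a minimum mean of 5 RPKM, no filter, 3 other scalings and protein-coding (NM) records alone. Among the scalings, no centring and equal summed RPKM gave the same ratios and counts.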

Additional observations from a re-analysis of the deposited data

How the results depend on the processing

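Across 8 alternatives the ratio of CEACAM5 stayed between -2.39 and -1.89, that of CEACAM6 between -1.03 and -0.84, that of CEACAM1 between -0.66 and -0.41, and the floor of CEACAM7 between -1.98 and -1.80. These lay inside the intervals from the fewest reads, but for CEACAM5 the value of -1.89, with a pseudocount of 1 RPKM, lies outside the interval from 342 and 74 reads. The members' shares of their summed RPKM do not depend on the scaling of a library. Counts of genes moved more. With a pseudocount of 1 RPKM, 102 expressed genes were at least 2-fold above and 1046 (7.8%) at least 2-fold below the median, against 184 and 1576. With a minimum mean of 5 RPKM the counts were 62 above and 544 below (5.94%), and without a filter 599 above and 3040 below. Of the genes in the related lists, 2 were at least 2-fold above and 26 below. These counts were 1 and 14 with the larger pseudocount, 0 and 10 with the higher minimum, and 5 and 40 with no filter. The count above was 1 with no centring, with equal summed RPKM, with upper-quartile scaling and with NM records alone. No paired analysis was possible because each kind of library has 1 sample. Depth limits CEACAM7 and most of the other CEACAM and PSG genes, which rest on 10 reads or fewer.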
